A study of Mus musculus with 8 samples.

Results

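The circadian clock genes followed here are 10 genes of the array chosen by name: the activators Arntl, Clock and Npas2, the repressors Per1, Per2 and Per3, the nuclear receptors Nr1d1 and Nr1d2, and the output factors Dbp and Tef. They make up 10 of 34790 gene names measured. They were picked with earlier results of these arrays in view, in which Arntl and Dbp set the shaved control apart, so every difference from that control is given as a description and carries no test. The mice were female C57 BL/6 animals whose back hair follicles were resting. The groups are back skin plucked with wax and taken 12 h, 1 d, 2 d or 4 d later, or else 6 d, 10 d or 50 d later, and back skin taken directly after shaving, the shaved control. Per the design text an earlier waxing had set the hair cycles in step, and whether the shaved control had it too is not stated. The labels give an age of 10 weeks for the control and for 12 h to 4 d, 11 weeks for 6 d and 10 d, and 17 weeks for 50 d, while the treatment notes give a younger age. The labels call the material adipose cells, while the design text speaks of tissue around the follicles that holds both fat and dermis, and whether animals were pooled is not stated. Each group is 1 sample on 1 one-colour array, all 8 on 1 slide, so no difference at a single time has a replicate. The labels give no hour of the day, so time of day and plucking cannot be told apart for any gene below.

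The circadian clock is a feedback loop of transcription and translation found in nearly every mammalian cell, fat and skin cells included. BMAL1, the product of Arntl, pairs with CLOCK or NPAS2 and switches on genes through E-boxes, among them the Per and Cry repressors, which then shut the pair down. The same pair drives Nr1d1 and Nr1d2, whose products REV-ERBα and REV-ERBβ repress Arntl through ROR elements, and Dbp and Tef, which act on D-boxes. In most mouse tissues Arntl RNA therefore peaks at the opposite phase to Dbp.

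The promoter stretches shown here are those of members that hold one of these motifs close to a start site, since the motifs are how the loop is wired. RefSeq promoters in GRCm38.p6, 300 bases each from 250 before to 50 after an annotated start, were at hand for 9 of the 10 members in 14 windows. The E-box CACGTG, on either strand, was in 3 of the 14 windows and in 7.15% of all 32851 promoters. These windows belong to 2 of the 9 genes, Per1 and Tef. The variant E-box CACGTT, which reads AACGTG on the other strand, was in 1 of the 14 windows, that of Nr1d1, and in 4.68% of promoters. The D-box TTANGTAA was in 1 of the 14 windows, that of Per3, at 2 places, and in 2.32% of promoters. The ROR element core TAGGTCA was in 1 of the 14 windows, of Arntl, and in 2.61% of promoters. The other core searched, TGGGTCA, was in none of the 14 windows and in 3.98% of promoters. No matches overlapped in these windows. Ciart, which encodes a repressor of the BMAL1 pair, is shown with them because it held 3 E-boxes. Capitals mark the motif, and each stretch is written 5′ to 3′ on the strand of the gene.
Arntl, chr7:113207530-113207559, plus strand, just after the start site: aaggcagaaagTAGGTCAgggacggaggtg
Nr1d1, chr11:98775378-98775430, minus strand: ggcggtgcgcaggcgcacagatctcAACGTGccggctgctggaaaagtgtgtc
Per1, chr11:69098758-69098813, plus strand: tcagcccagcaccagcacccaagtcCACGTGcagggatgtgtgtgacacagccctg
Tef, first start, chr15:81802521-81802576, plus strand: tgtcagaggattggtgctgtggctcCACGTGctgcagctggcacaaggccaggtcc
Tef, second start, chr15:81811251-81811306, plus strand: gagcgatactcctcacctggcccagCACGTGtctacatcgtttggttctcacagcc
Per3, chr4:151044791-151044895, minus strand: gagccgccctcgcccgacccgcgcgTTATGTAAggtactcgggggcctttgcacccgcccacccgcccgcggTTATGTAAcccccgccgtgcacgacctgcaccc
Ciart, chr3:95882242-95882369, minus strand: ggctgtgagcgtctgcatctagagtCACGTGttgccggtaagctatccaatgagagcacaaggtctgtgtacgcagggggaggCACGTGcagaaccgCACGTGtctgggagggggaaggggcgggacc
A match is a description of the letters and not of binding, and the enhancers of these genes may lie outside the windows.

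**Figure D1:**
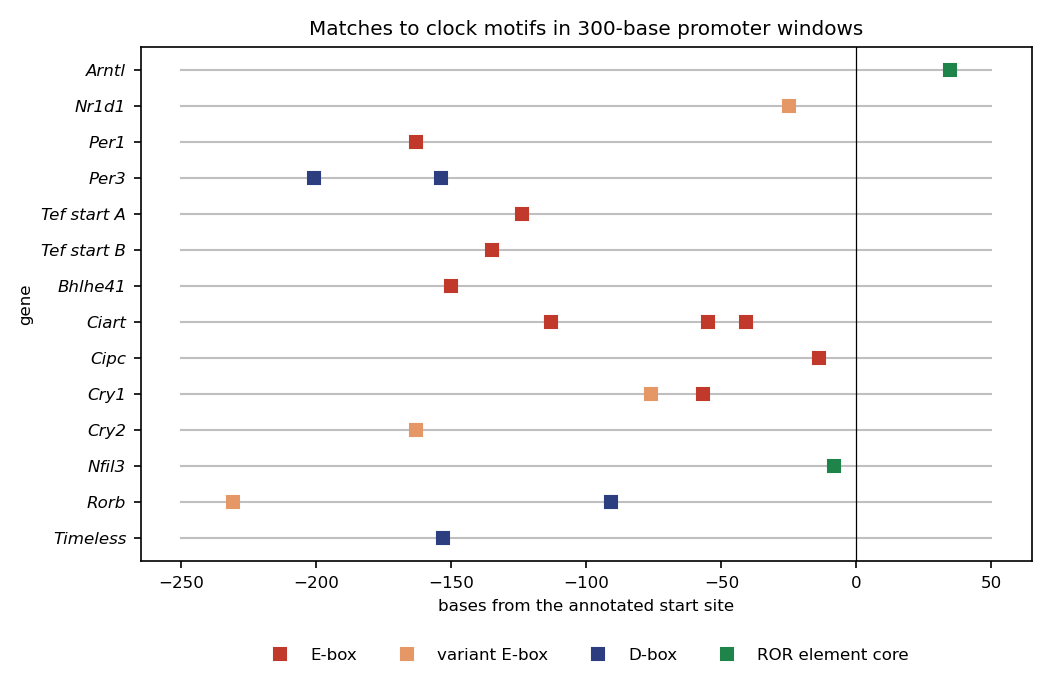
Matches to the motifs in the 300-base windows of clock genes that held at least 1, by distance in bases from the annotated start site. Members are the upper rows and the other clock genes the lower rows, a line is 1 window, windows with no match are not drawn, and squares mark E-boxes, variant E-boxes, D-boxes and ROR element cores; the 3 E-boxes of Ciart and the 2 D-boxes of Per3 stand out.

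A level below is a probe's log2 processed signal with its array's own 75th percentile taken as 0, and a difference is the level on a plucked array minus that of the shaved control. All 10 members were well above background on all 8 arrays, by 13 probes, with several probes for 3 genes. Probes spotted 10 times differed between spots by a median SD of 0.06 to 0.09, and between the probes of a gene the differences had a median SD of 0.15 to 0.18. Levels closer than 0.18 are called within the technical spread; the spread between mice is unknown. The share of spots well above background ran from 72.9% to 81.1% over the 8 arrays, and the file headers mark the spike-in slope as out of range for 10 d alone. Fat markers were well above background on every array for all 7 genes of the list, and so were all 4 skeletal muscle and all 7 interfollicular keratinocyte markers, so RNA typical of several tissues was present. In such samples fewer cells of a type and less RNA per cell cannot be told apart.

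Of the activators, Arntl differed most. Arntl stood low in the shaved control and high on every plucked array, with levels of -0.95 in the shaved control, 2.46 after 12 h, 1.34 after 1 d, 1.35 after 2 d, 1.48 after 4 d, 1.28 after 6 d, 1.92 after 10 d and 2.10 after 50 d. The control lay 2.23 below the lowest plucked array, and the differences ran from 2.23 after 6 d to 3.40, or 10.6-fold, at 12 h. Among plucked arrays 12 h was the highest, 50 d and 10 d came next within the technical spread of each other, and the levels at 6 d, 1 d, 2 d and 4 d were each within it of the next. The probe matches chromosome 7 from 120457261 to 120457320, in the mm9 build that the file headers name, for which no exon annotation was used here.

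Clock, the partner of BMAL1, was shifted the same way by far less. Its levels were -0.53 in the shaved control, 0.27 after 12 h, 0.15 after 1 d, 0.04 after 2 d, -0.12 after 4 d, -0.11 after 6 d, 0.23 after 10 d and 0.22 after 50 d. The control was below all plucked arrays by 0.41, no difference reached 2-fold, and each plucked level was within the technical spread of the next. Npas2, which can replace CLOCK, did not follow Arntl. Its levels were -4.00 in the shaved control, -3.70 after 12 h, -3.49 after 1 d, -3.59 after 2 d, -4.72 after 4 d, -4.09 after 6 d, -3.57 after 10 d and -3.89 after 50 d. The control lay inside the plucked range, 4 d was lowest, and no difference reached 2-fold. The probe of Clock is on chromosome 5, 76641377 to 76641436, and that of Npas2 on chromosome 1, 39418941 to 39419000, both in mm9. The dim Npas2 probe depended on the background correction. The alternative, normexp, subtracts the local background, models what background remains and adds an offset of 50. With it the range of Npas2 over the plucked arrays was 0.66 in place of 1.23. Its lowest array was then 6 d, with a difference of -0.36, in place of 4 d, with -0.30.

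Among the nuclear receptors that repress Arntl, Nr1d2 was lower on every plucked array. Its levels were 2.58 in the shaved control, 1.04 after 12 h, 2.20 after 1 d, 2.19 after 2 d, 1.44 after 4 d, 1.84 after 6 d, 1.39 after 10 d and 1.79 after 50 d. It was at least 2-fold lower at 12 h, with a difference of -1.54, at 4 d, with -1.14, and at 10 d, with -1.19, while 1 d lay nearest to the control. A second, dimmer probe of Nr1d2 gave 1.31 in the shaved control and from -0.08 after 12 h to 1.00 after 2 d, again with every plucked array below the control. The probes lie on chromosome 14, at 19036568 to 19036627 and 19037253 to 19037312 in mm9.

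Nr1d1 overlapped with the control. Its levels were 0.93 in the shaved control, -0.25 after 12 h, 0.62 after 1 d, 1.00 after 2 d, 0.03 after 4 d, -0.39 after 6 d, 0.36 after 10 d and 0.51 after 50 d. It was at least 2-fold lower at 12 h, with a difference of -1.18, and at 6 d, with -1.31, and at 2 d it was within the technical spread of the control. The Nr1d1 probe is on chromosome 11, between 98630526 and 98631028 in mm9. At 6 d Nr1d1 was at its lowest while Nr1d2 was in the middle of its plucked range.

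Per genes encode the repressors that act with the cryptochromes. Per3 was lower on every plucked array, with levels of -1.71 in the shaved control, -3.68 after 12 h, -2.59 after 1 d, -2.46 after 2 d, -3.48 after 4 d, -3.09 after 6 d, -3.05 after 10 d and -2.87 after 50 d. The difference was largest at 12 h, -1.97, and reached 2-fold at every time but 1 d and 2 d. Per2 was also lower on every plucked array, but its lowest arrays were other ones. Its levels were -1.25 in the shaved control, -2.64 after 12 h, -1.81 after 1 d, -2.14 after 2 d, -3.74 after 4 d, -2.34 after 6 d, -3.25 after 10 d and -3.75 after 50 d. The arrays at 50 d and 4 d were within the technical spread of each other and lowest, both with a difference of -2.50. The Per3 probe is on chromosome 4, 150379256 to 150379315, and the Per2 probe on chromosome 1, 93313046 to 93313105, in mm9. Both genes are dim, and normexp background correction shrank the differences, to -1.38 for Per3 at 12 h, and to -1.68 and -1.51 for Per2 at 4 d and 50 d, with no change of sign. With it Per3 at 10 d, at -0.88, and at 50 d, at -0.71, and Per2 at 6 d, at -0.94, no longer reached 2-fold.

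Per1, which is also known to be induced by glucocorticoids and like an immediate early gene, overlapped with the control. Its levels were 4.27 in the shaved control, 3.49 after 12 h, 4.40 after 1 d, 3.72 after 2 d, 2.82 after 4 d, 3.78 after 6 d, 4.05 after 10 d and 3.33 after 50 d. It reached 2-fold only at 4 d, with -1.45, and at 1 d it was within the technical spread of the control. A second probe, made to another transcript sequence, disagreed, with levels of -0.92 in the shaved control, -2.25 after 12 h, -1.49 after 1 d, -1.19 after 2 d, -1.43 after 4 d, -1.22 after 6 d, -1.36 after 10 d and -0.09 after 50 d. It was highest at 50 d, where the brighter probe was among the lowest, so the 50 d level of Per1 depends on the probe. With the mean over both probes the difference was -1.06 after 12 h, -0.22 after 1 d, where the sign turned from 0.12, and -0.98 after 4 d, so that 12 h reached 2-fold and 4 d did not. The brighter probe lies on chromosome 11, 68923364 to 68923423 in mm9, and the other at 68919895 to 68919954.

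Values of stress-linked genes are given beside Per1. Of 11 glucocorticoid-induced genes, 6 were at least 2-fold higher at 12 h, where 3.86% of all genes were, 6 after 1 d (2.76%), 2 after 2 d (2.62%), 5 after 4 d (5.9%), 5 after 6 d (4.17%), 6 after 10 d (3.99%) and 1 after 50 d (2.7%). One of them was at least 2-fold lower, at 4 d, where 6.5% of all genes were. The median difference of the list was 1.57 after 12 h, 1.58 after 1 d, 0.42 after 2 d, 0.63 after 4 d, 0.86 after 6 d, 1.05 after 10 d and 0.13 after 50 d. The metallothionein genes Mt2 and Mt1 had their largest differences at 12 h, 3.53 and 2.33, as did Pdk4, a brake on glucose oxidation, with 2.41, and the glucocorticoid receptor co-chaperone gene Fkbp5, with 2.26. Of 9 immediate early genes, 3 were at least 2-fold lower at 12 h, where 3.32% of all genes were, 2 at 6 d (2.1%) and 1 at 10 d (2.13%), and 4 were higher at 50 d (2.7%), with none called at the other times. Fosb was at -1.94 and Egr1 at -1.45 after 12 h, Fos at -1.43 after 10 d and Atf3 at 1.38 after 50 d. The median of this list was -0.79 after 12 h, -0.02 after 1 d, 0.24 after 2 d, -0.46 after 4 d, -0.64 after 6 d, -0.16 after 10 d and 0.88 after 50 d. By the brighter probe the difference of Per1 was -0.78 after 12 h, 0.12 after 1 d, -0.56 after 2 d, -1.45 after 4 d, -0.49 after 6 d, -0.22 after 10 d and -0.95 after 50 d. At 12 h this was near the immediate early median, and at 1 d, 2 d and 50 d of opposite sign, though at 1 d both were smaller than the technical spread. The second probe was at -0.09 after 50 d against -0.92 in the shaved control, so the sign at 50 d depends on the probe. The part of these lists in the clock values was not tested.

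Of all members Dbp had the largest difference from the control. Dbp, a transcription factor driven directly by the BMAL1 pair, had levels of 5.45 in the shaved control, 0.81 after 12 h, 3.11 after 1 d, 3.46 after 2 d, 1.73 after 4 d, 2.76 after 6 d, 1.47 after 10 d and 2.09 after 50 d. The control lay 1.99 above the highest plucked array, and 12 h was lowest, with a difference of -4.64. By this brighter probe no neighbours in the order of its 8 levels were within the technical spread. A second Dbp probe gave 5.42 in the shaved control and from 0.94 after 12 h to 3.21 after 2 d on the plucked arrays. On it 4 d, at 1.51, lay below 10 d, at 1.66, in the reverse order but within the technical spread. Its levels at 6 d, 2.80, and 1 d, 2.94, were also within that spread. The probes lie on chromosome 7, 52965322 to 52965381 and 52965461 to 52965520 in mm9. Tef, a relative of Dbp that binds the same sites, had levels of 5.47 in the shaved control, 4.30 after 12 h, 5.04 after 1 d, 5.05 after 2 d, 4.40 after 4 d, 4.31 after 6 d, 4.43 after 10 d and 4.79 after 50 d. All plucked arrays were below the control, by at least 0.42, and 12 h, 6 d, 4 d and 10 d formed a low set in which each level was within the technical spread of the next. The Tef probe is on chromosome 15, 81657221 to 81657280 in mm9. With quantile normalization Tef no longer reached 2-fold at 4 d, at -0.97, or at 10 d, at -0.94.

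**Figure D2:**
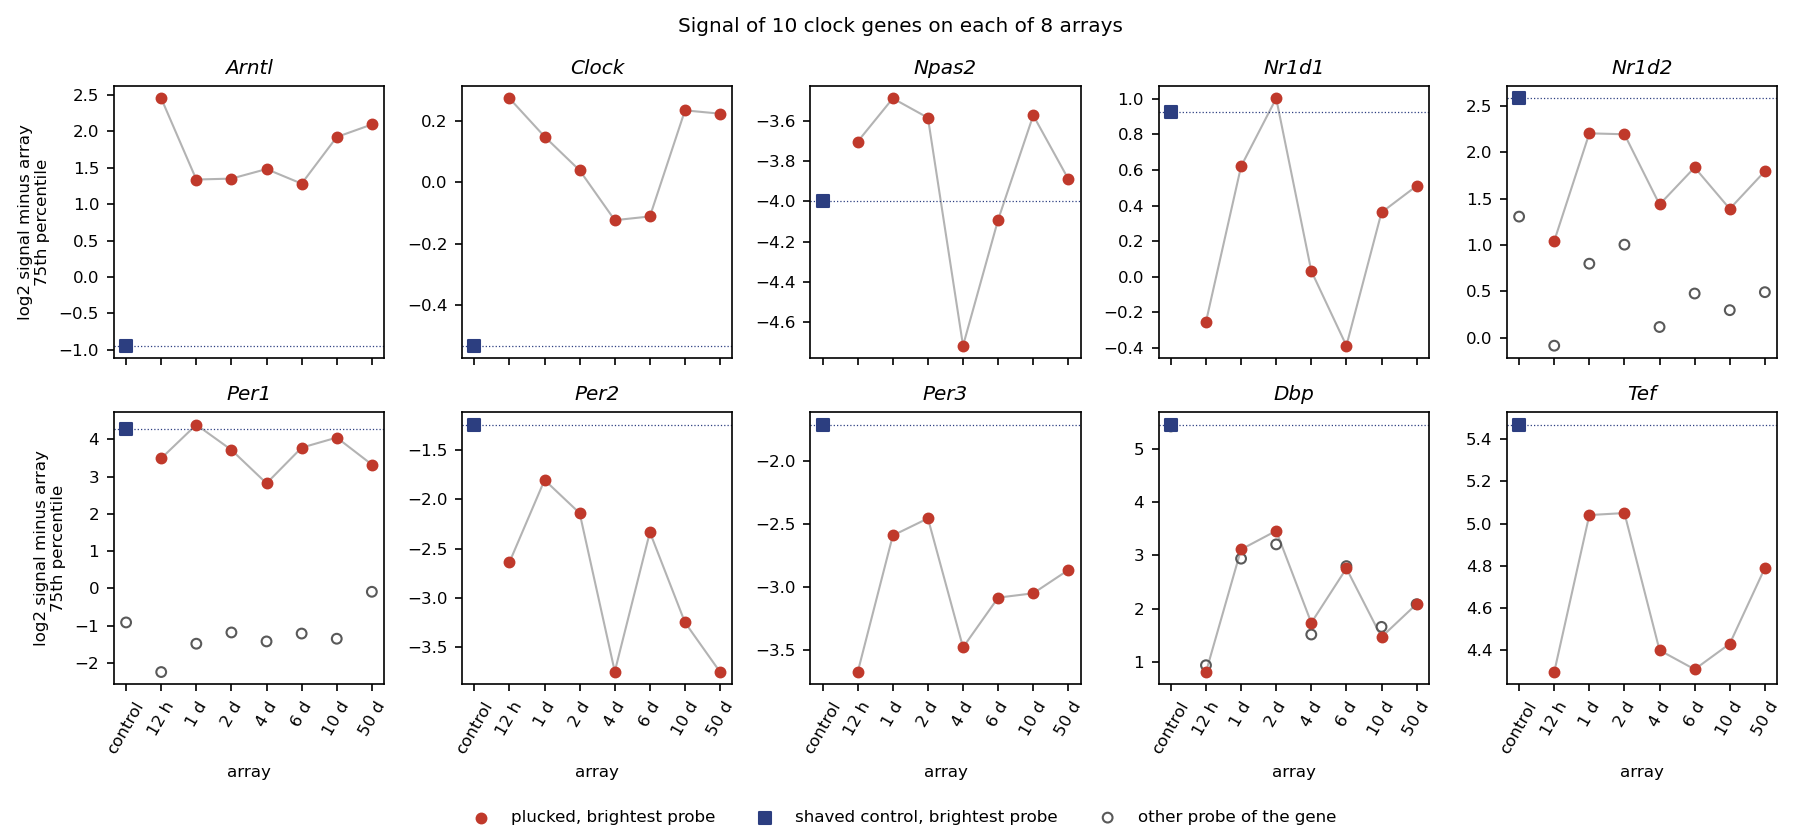
Levels of the 10 members on each of 8 arrays, in log2 signal minus the array's 75th percentile, with a separate scale for each gene. Squares and dotted lines are the shaved control, filled circles the plucked arrays by the brightest probe and open circles other probes of the gene; Arntl stands above the control and Dbp below it on all 7 plucked arrays.

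The members at least 2-fold from the shaved control were counted at each time, beside the share of all genes well above background on either array. At 12 h there were 7, of which 1 was higher and 6 lower, and 7.18% of genes, with 3.86% higher and 3.32% lower. At 1 d there were 2, of which 1 was higher and 1 lower, and 5.9% of genes, 2.76% higher and 3.14% lower. At 2 d there were 2, of which 1 was higher and 1 lower, and 6.13% of genes, 2.62% higher and 3.52% lower. At 4 d there were 7, of which 1 was higher and 6 lower, and 12.4% of genes, 5.9% higher and 6.5% lower. At 6 d there were 6, of which 1 was higher and 5 lower, and 6.26% of genes, 4.17% higher and 2.1% lower. At 10 d there were 6, of which 1 was higher and 5 lower, and 6.12% of genes, 3.99% higher and 2.13% lower. At 50 d there were 4, of which 1 was higher and 3 lower, and 7.1% of genes, 2.7% higher and 4.4% lower. Since the members were chosen on this contrast, nothing is read from the difference in shares. Arntl was the only member called higher, at all 7 times, and the called lower members were Dbp at all 7, Per2 and Per3 at 5 each, Tef at 4, Nr1d2 at 3, Nr1d1 at 2 and Per1 at 1. The median difference of the 10 members was -1.17 after 12 h, -0.34 after 1 d, -0.40 after 2 d, -1.11 after 4 d, -0.92 after 6 d, -0.80 after 10 d and -0.73 after 50 d, and that of all genes was between -0.13 and 0.04. All 7 comparisons share the single control array.

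**Figure D3:**
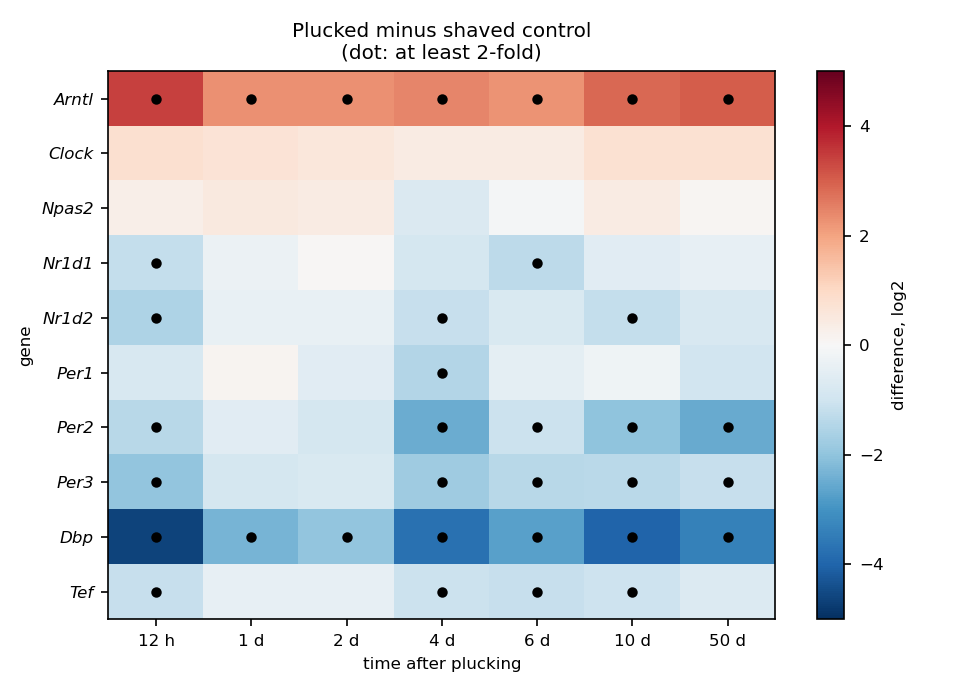
Difference of each member from the shaved control at each time after plucking, on a log2 colour scale, with red for higher and blue for lower on the plucked array. A dot marks a difference of at least 2-fold; the rows of Arntl and Dbp are dotted at all 7 times, and the columns at 1 d and 2 d hold 2 dots each.

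The shaved control lay outside the range of the 7 plucked arrays for 7 of the 10 members, above it for 5 and below it for 2. Of the 26129 genes that were well above background on all 8 arrays this held for 20.3%, with the control above for 12.3% and below for 8.02%. A gap of at least 2-fold was found for Arntl and Dbp among the members and for 0.126% of those genes, 33 in all, with the control above for 0.0919% and below for 0.0344%. Arntl had the largest gap of the 9 genes with a low control, and Dbp ranked 6 of the 24 with a high one. These gaps are what drew attention to the genes.

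Differences among the plucked arrays do not involve the shaved control. Over these 7 arrays 8 of the 10 members had a range of at least 2-fold, against 29.1% of the 26129 genes, and the median range was 1.22 for the members and 0.73 for all. With normexp the ranges of Npas2, at 0.66, and of Per3, at 0.82, were under 2-fold, and with the mean over probes that of Per1 was, at 0.995. Dbp varied most, by 2.65 or 6.28-fold, a range larger than in 97.3% of genes, followed by Per2 at 1.94, while that of Clock, 0.40, was larger than in 13.2%. The array at 12 h was the lowest plucked one for Per3, Nr1d2, Dbp and Tef and the highest for Arntl and Clock, but for Tef it was within the technical spread of 6 d and for Clock of 10 d.

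Neighbouring times after plucking differed unevenly. From 12 h on, the median size of the members' difference was 0.89 for 1 d against 12 h and 0.93 for 4 d against 2 d, where all genes had 0.21 and 0.30. At 1 d against 12 h, 4 members were at least 2-fold apart, against 4.23% of genes. Dbp was higher by 2.30, Nr1d2 by 1.16 and Per3 by 1.08, where 1.62% of genes were higher. Arntl was lower, at -1.12, where 2.61% were lower. With normexp background correction or quantile normalization 3 members reached 2-fold at this step. At 2 d against 1 d no member reached 2-fold, where 1.04% of genes were higher and 1.3% lower, 2.34% in all, and 6 of 10 members were within the technical spread. The median size was then 0.12 for the members and 0.16 for all genes. At 4 d against 2 d, 4 members were at least 2-fold lower and none higher, with 8.7% of genes apart, 4.76% higher and 3.95% lower. These were Npas2 at -1.13, Per2 at -1.60, Per3 at -1.02 and Dbp at -1.73. With normexp background correction or quantile normalization that count was 2. At 6 d against 4 d, Per2 was higher by 1.41 and Dbp by 1.02, with 7.77% of genes apart, 5.12% higher and 2.66% lower, and with normexp or another centring 1 member reached 2-fold. At 10 d against 6 d only Dbp reached 2-fold, at -1.29, with 6.54% of genes apart, 2.74% higher and 3.8% lower, and with quantile normalization 2 members did. At 50 d against 10 d no member did, with 12.6% of genes apart, 5.57% higher and 6.98% lower. These steps have no replicate, and the labelled times do not fix the hour of sampling.

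Dbp and Nr1d2 varied together across the plucked arrays. Pearson's r between their levels was 0.98 over the 7 arrays, the highest of 5029 genes with a proper symbol and a range of at least 2-fold over all 8. For Per3 and Dbp it was 0.87, for Tef 0.74, for Per2 0.59, for Nr1d1 0.57 and for Per1 0.41. Arntl ran opposite to Dbp, at -0.83, which 6 of the 5029 genes reached or passed, and together with Clock, at 0.77, which 65 reached or passed. With the other members r of Arntl was -0.74 for Nr1d2, -0.55 for Per3, -0.44 for Per2, -0.37 for Tef, -0.25 for Nr1d1 and -0.23 for Per1, and for Per1 31.3% of those genes were as extreme. Npas2 followed neither, at 0.19 with Arntl and 0.22 with Dbp. These values describe 7 arrays of 1 slide, and genes are not independent replicates.

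**Figure D4:**
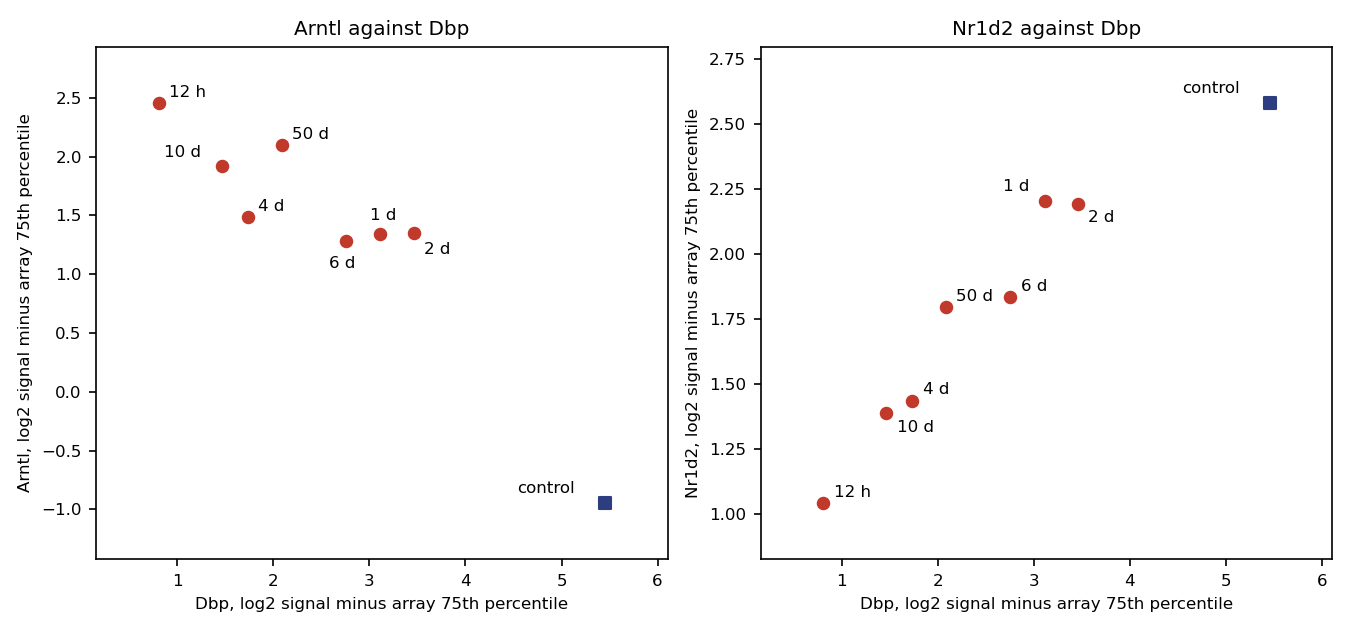
Arntl (left) and Nr1d2 (right) against Dbp on the 8 arrays, all in log2 signal minus the array's 75th percentile; the square is the shaved control and circles are plucked arrays, labelled by time. Among the plucked arrays 12 h has the least Dbp and Nr1d2 and the most Arntl, and the control lies apart at high Dbp and low Arntl.

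Genes outside the members were ranked by likeness to Arntl and to Dbp over all 8 arrays. Most like Arntl were Nfil3, with r of 0.92, Pdk4 at 0.91, Lrrc30 at 0.84, Rhou at 0.83 and Gsta3 at 0.83, and most opposed were Vmn2r114 at -0.95, Bbs2 at -0.94, Prepl at -0.93, Nefl at -0.88 and Pmfbp1 at -0.87. Most like Dbp were Hlf at 0.89, Meig1 at 0.89, the growth factor gene Fgf10 at 0.87, Vmn1r219 at 0.87 and Slc5a6 at 0.86, and most opposed were Nfil3 at -0.90, Pdk4 at -0.81, Car2 at -0.79, Slc20a1 at -0.78 and Txnrd1 at -0.77. The control array weighed heavily on these ranks. Without it, none of the 10 named for Arntl and 1 of the 10 named for Dbp remained among the 5 at either end. The one that remained was the dim Vmn1r219, with r of 0.87 over the 7 plucked arrays. Vmn2r114, Nefl, Pmfbp1 and Meig1 were dim too, at -3.35, -3.34, -2.66 and -3.13 in the shaved control. Their levels were lower still on every plucked array, and how their r depends on the background correction was not tested. Over the 7 plucked arrays r with Arntl was 0.68 for Nfil3 and 0.54 for Pdk4, and r with Dbp was 0.73 for Hlf and 0.80 for Fgf10.

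Other genes of the clock were taken from a list of 22, of which 21 were well above background on at least 1 array in each comparison and Fbxl21 was on none. At least 2-fold from the control were 5 genes after 12 h, 2 after 1 d, 2 after 2 d, 6 after 4 d, 4 after 6 d, 3 after 10 d and 5 after 50 d. The share of all genes, given above for the members, was 7.18%, 5.9%, 6.13%, 12.4%, 6.26%, 6.12% and 7.1% at these times, and the 2 of 21 at 1 d and at 2 d are near it. The medians of the list ran from -0.01 after 6 d to 0.24 after 1 d. Higher and lower calls were mixed, 2 and 3 at 12 h and 3 and 2 at 50 d, and 3 genes, Ciart, Hlf and Nfil3, were called at 4 or more times.

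Ciart, shown above with its E-boxes and named Gm129 on the array, was lower on every plucked array, as Dbp was. Its levels were -1.84 in the shaved control, -5.07 after 12 h, -3.03 after 1 d, -3.63 after 2 d, -4.01 after 4 d and -3.97 after 6 d, and at 10 d and 50 d it was not well above background. It was 9.37-fold lower at 12 h and 2.28-fold lower at 1 d, and at least 7.84-fold and at least 8.72-fold lower at 10 d and 50 d. At 12 h it was well above background but dimmer than Npas2 on any array. How its folds depend on the background correction is not given. Each bound sets the control against the lowest signal well above background on the plucked array, or the dim probe's own signal where that is higher.

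Hlf, the third relative of Dbp and Tef, was also lower on every plucked array. Its levels were 0.72 in the shaved control, -1.26 after 12 h, -0.17 after 1 d, -0.40 after 2 d, -1.29 after 4 d, -1.17 after 6 d, -1.38 after 10 d and -0.46 after 50 d, and it reached 2-fold at all times but 1 d. Nfil3, whose product represses through the D-boxes that DBP activates, ran the other way. Its levels were 0.81 in the shaved control, 2.80 after 12 h, 2.39 after 1 d, 1.63 after 2 d, 2.25 after 4 d, 2.41 after 6 d, 2.37 after 10 d and 2.65 after 50 d. It was at least 2-fold higher at all times but 2 d, and like Arntl it was lowest in the control and highest at 12 h.

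Cry1, a cryptochrome repressor, was at least 2-fold higher at 3 times, with levels of -4.04 in the shaved control, -2.79 after 12 h, -3.36 after 1 d, -3.58 after 2 d, -3.22 after 4 d, -2.79 after 6 d, -4.17 after 10 d and -2.62 after 50 d. Its probe is dim, as that of Npas2 is. With normexp the called count of the list was 4 at 12 h, 3 at 6 d and 4 at 50 d, in place of 5, 4 and 5, and these are the times of the Cry1 calls. The count also fell at 1 d and 4 d, where Cry1 was not called, and which genes dropped out is not given. Rorb, which encodes one of the ROR receptors that activate through the elements where REV-ERB represses, ranged from -2.59 after 12 h to -1.09 at 10 d against -1.24 in the shaved control. A second Rorb probe had its lowest level at 4 d, -2.78, and gave -2.21 at 12 h against -2.10 in the shaved control. The low Rorb level at 12 h therefore rests on 1 of 2 probes. At 10 d the second probe was at its highest, -0.71, while the brighter one was within the technical spread of its control. The 10 d difference thus depends on the probe too.

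**Figure D5:**
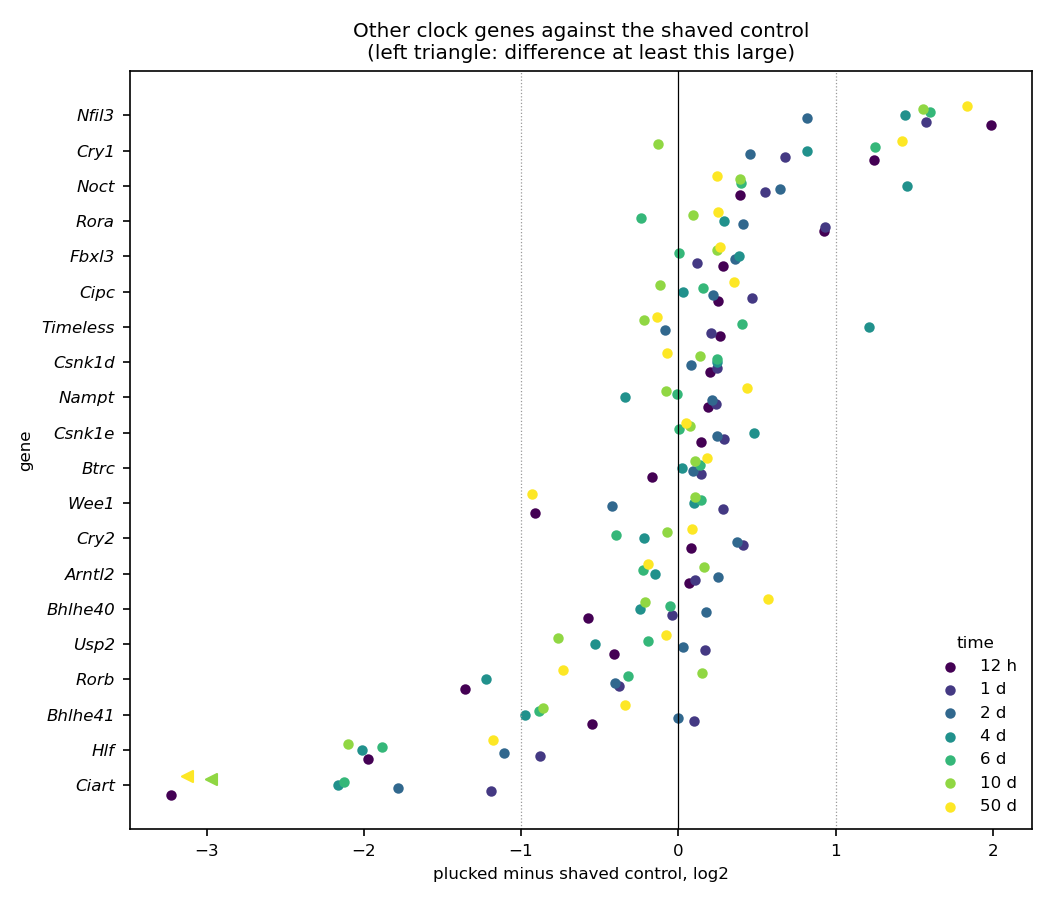
Difference from the shaved control, in log2, for other clock genes of the list at 7 times, coloured by time and ordered by their median. Dotted lines mark 2-fold, and left triangles are bounds, where the true difference is at least that large; Ciart and Hlf lie furthest to the left and Nfil3 furthest to the right, while most genes stay between the dotted lines.

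Cell type markers moved between the same arrays. For each list the linear signals of its markers, scaled as for the levels above, were summed and the log2 of the sum was taken. The brightest markers therefore weigh most. On the plucked arrays and in the shaved control, this log2 of the sum was 1.74 to 9.30 against 1.17 for 6 hair shaft markers. It was 3.42 to 7.93 against 4.63 for 7 interfollicular keratinocyte markers, and 6.58 to 7.82 against 8.01 for 6 macrophage markers. It was 9.17 to 9.66 against 9.83 for 5 fibroblast markers, 8.15 to 9.37 against 9.01 for 7 adipocyte markers and 10.0 to 10.7 against 10.3 for 4 skeletal muscle markers. For 4 lymphocyte markers it was -1.08 to 3.79 against -0.63. The 12 h array stood alone at 3.79, and the next highest plucked array, 50 d, was at -0.16. The control was outside the plucked range for 3 of these 7 sums, below it by 0.57 for hair shaft markers and above it by 0.19 for macrophage and 0.17 for fibroblast markers. On all 8 arrays every listed marker was well above background, except 1 of the 4 lymphocyte markers. Their part in the clock values was not tested.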

How the data were processed

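Total RNA of 8 samples was labelled with Cy3 and hybridised to Agilent arrays, 1 per sample. What the authors deposited is, per the file headers, an intensity for each spot from Feature Extraction 10.5.1.1, background-subtracted, detrended and with surrogates for dim spots, and no normalization between arrays. No spot was saturated. Control spots and outlier-flagged spots were left out, spots of a probe were averaged, and 55668 of 55681 probes were used; 13 had no unflagged spot on an array. Values are log2 intensity minus the array's 75th percentile, and the brightest probe stood for a gene. A difference counted at 2-fold or more with the brighter array well above background. With 1 array per time no test was run; the number of arrays limits the precision. The members, lists and tests were chosen with earlier results of these data known, and the comparisons between neighbouring times were added after seeing the data. The genes named with values were all members, other clock genes called at 4 or more times or with the 4 largest plucked ranges, the 5 genes at either end of likeness, and the 4 leaders of each of 2 stress lists. One gene that this rule names is not reported here. Of the members' brightest probes, 9 of 10 had an accession matched to the same symbol in a RefSeq table of GRCm38.p6. Normexp (limma 3.58.1, R 4.3.3, offset 50), quantile normalization, another centring, the mean over probes, other background filters, 1.5-fold and 3-fold thresholds and the 50 d array as the reference were tried. Other steps ran in Python 3.11.15, numpy 2.4.6 and pandas 2.3.3. Only a 2-fold cut and a ranking by correlation, coded apart from these steps, were tried on simulated data.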

Additional observations from a re-analysis of the deposited data

How the results depend on the processing

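Normexp, quantile normalization, another centring, the mean over probes and the background filters left each count of members against the shaved control within 1.5 times. The gaps of Arntl and Dbp moved by less than the technical spread under the 4 of these that change levels. The counts depended on the threshold and on the reference array. The share of all genes was not taken at 1.5-fold or 3-fold, and against the 50 d array only for 10 d, 12.6%. The other counts at these settings have no general rate beside them. At 1.5-fold the counts of members were 9 after 12 h, 4 after 1 d, 4 after 2 d and 9 after 4 d. They were 7 after 6 d, 7 after 10 d and 8 after 50 d. At 3-fold they were 3 after 12 h, 2 after 1 d, 2 after 2 d and 4 after 4 d. After 6 d, 10 d and 50 d they were 2, 3 and 3. Against the 50 d array they were 2 after 12 h, 3 after 1 d, 2 after 2 d, 0 after 4 d, 1 after 6 d and 0 after 10 d. For other clock genes, and between plucked arrays, only counts that changed by more than 1.5 times are given. For other clock genes 1.5-fold gave 8 after 12 h, 6 after 1 d, 5 after 2 d and 5 after 10 d. For them 3-fold gave 3 after 12 h, 0 after 1 d, 1 after 2 d, 2 after 4 d and 2 after 50 d. Normexp gave 1 after 1 d, and the 50 d reference 2 after 12 h. Between plucked arrays, 4 d against 2 d gave 2 with normexp and 2 with quantile normalization, 6 d against 4 d gave 1 with normexp and 1 with another centring, and 10 d against 6 d gave 2 with quantile normalization.

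With the 50 d array as the reference 12 called differences changed sign; this alternative puts a plucked array in the place of the control. Arntl turned to -0.76 after 1 d, -0.74 after 2 d, -0.61 after 4 d, -0.81 after 6 d and -0.17 after 10 d. Per2 turned to 1.11 after 12 h, 0.0053 after 4 d, 1.41 after 6 d and 0.50 after 10 d, and Dbp to 1.02 after 1 d, 1.37 after 2 d and 0.67 after 6 d. Of the genes most like Arntl 0 of 10, and of those most like Dbp 1 of 10, were found again over the 7 plucked arrays. Of 70 differences of members, normexp moved 19 by more than the technical spread, 17 of them of the dim genes Per2, Per3 and Npas2, and 3 fell under 2-fold; the cause was not tested. No paired analysis was possible because each group holds 1 sample.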
